A study of Mus musculus with 3 samples.

Results

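The 10 genes described here are 4 Notch receptors (Notch1, Notch2, Notch3 and Notch4), 4 of their ligands (Jag1, Jag2, Dll1 and Dll4) and 2 genes that Notch signals switch on (Hes1 and Heyl). They were chosen by name from the 19165 genes of the expression table, and all 10 were measured. Back skin was taken from male C57BL/6 mice at embryonic days E13.5 and E16.5 and on the day of birth (P0), with no treatment or genetic change in the labels, and single cells were sequenced with the droplet method of 10x Genomics. Skin was opened with trypsin and EDTA at E13.5 and E16.5 but with collagenase IV at P0, so stage and digestion cannot be told apart. Each stage was 1 library of cells from pooled skin, and cells of 1 library are not replicates of a stage. No p-value is therefore given anywhere, and every 95% interval covers counting error only.

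The 3 libraries held 5962, 5208 and 5065 cells at E13.5, E16.5 and P0. Their totals were 53334740, 66239195 and 46599806 unique molecular identifiers (UMIs, one per captured RNA molecule), and the median cell had 7066.5, 11021 and 6797. In all, 115 cell barcodes occurred in more than 1 library. A doublet caller marked 0 cells at E13.5, where it is taken not to have worked, 84 at E16.5 and 106 at P0.

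Notch receptors are membrane proteins that are cut when a ligand on a neighbouring cell pulls on them. The freed inner part enters the nucleus and, with the DNA-binding protein RBPJ, turns on target genes, among them the Hes and Hey repressors. In skin the pathway is known for its part in the differentiation of the epidermis and the hair follicle, in the choice of arterial fate and in the coating of vessels by mural cells. Jag and Dll proteins are the 2 ligand families. Hes1, Hes5, Hey1, Hey2 and Heyl are helix-loop-helix repressors, and Nrarp is a small target that dampens the signal. Lfng and Mfng are sugar transferases that alter how receptors answer ligands.

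Cells were clustered within each library without the Notch genes and named from marker lists, and every name is written with "like" because it rests on markers alone. Levels are UMIs of a gene per 1000000 UMIs of a class (CPM). The log2 difference of CPM plus 10 compares classes, and a gene is called higher or lower where that difference is at least 1 in size and its interval leaves out 0. The DC-like cells of E16.5 (372 cells) carry markers of the dermal condensate, the mesenchymal cell cluster under each forming follicle, and the DP-like cells of P0 (207 cells) those of the dermal papilla that it becomes. Of the 10 markers of dermal cells in general, 7 were lower in DC-like and 8 in DP-like cells than in other dermal-like cells. No DC-like cluster was named at E13.5.

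Notch1 was highest in the epithelium and the vessel lining. At E13.5 it stood at 176 CPM (95% interval 160.4 to 192) in periderm-like cells, the flat outer layer of the embryonic epidermis, against 15.1 CPM in the other dermal-like class. At E16.5 suprabasal-like cells, which have left the basal layer of the epidermis, held 225 CPM (95% interval 197 to 255), arterial-like cells 197 CPM (95% interval 142 to 266) and lymphatic-like cells 161 CPM (95% interval 136 to 188). These 3 neighbours in the order had overlapping intervals. At P0 lymphatic-like cells, only 12 in number, stood at 172 CPM (95% interval 123 to 234) and arterial-like cells at 114 CPM (95% interval 71.6 to 173), again with overlap.

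Notch2 was found in every class. Other dermal-like cells held 153 CPM (95% interval 148 to 159) at E13.5, 60.4 CPM (95% interval 57.8 to 63.1) at E16.5 and 139 CPM (95% interval 132 to 145) at P0. At E13.5 the value differed among the 7 dermal-like clusters, from 89.9 to 353 CPM, and Notch2 was among the leading genes of the cluster at the top. That cluster held 722 cells and had the lowest median depth of the 7, 4809 UMIs per cell. The erythroid-like cells of E13.5 stood at 299.5 CPM (95% interval 279.9 to 320.2), above mast-like cells at 246 CPM (95% interval 217 to 279). Periderm-like (234 CPM), melanocyte-like (210) and neuron-like cells (184) also lay above other dermal-like cells, which ranked 9 of 13. The median cell had 5817 UMIs in erythroid-like and 5580 in mast-like cells, against 8506 in other dermal-like cells. The part of depth in this order was not tested. At P0 the order was other dermal-like cells, DP-like cells at 110.2 CPM (95% interval 94.0 to 128) and suprabasal-like cells at 67.1 CPM (95% interval 55.7 to 80.2), with no overlap between neighbours.

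Notch3, a receptor known from vessel wall muscle, followed the mural-like cells, which wrap vessels. Smooth muscle-like cells held 214 CPM (95% interval 185 to 248) at E16.5 and 280.5 CPM (95% interval 246 to 319) at P0, and pericyte-like cells 191 CPM (95% interval 158 to 229) and 237 CPM (95% interval 197 to 283). The intervals of smooth muscle-like and pericyte-like cells overlapped at both stages, while the next class, suprabasal-like cells, lay below both. At E13.5, where no mural-like cluster was named, periderm-like cells were first at 35.4 CPM (95% interval 28.7 to 43.1) and muscle-like cells next at 20.9 CPM (95% interval 17.4 to 24.9).

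Notch4, a receptor known from endothelium, and the ligand Dll4 had their highest levels in the vessel lining. For Notch4 this held for blood endothelial-like and arterial-like cells and not for lymphatic-like cells. Endothelial-like cells held 42.1%, 64.0% and 58.1% of all Notch4 UMIs at E13.5, E16.5 and P0. For Dll4 the shares were 85.05%, 89.8% and 88.1%. Endothelial-like cells made up 6.31%, 6.74% and 5.27% of the cells and held 7.61%, 10.06% and 6.86% of all UMIs. No Dll4 UMI was found in 372 DC-like cells, which at a limit of 3 counts allows up to 0.883 CPM.

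Jag1, a ligand of several tissues, had another leading class at each stage. At E13.5 it was first in periderm-like cells at 77.3 CPM (95% interval 67.2 to 88.4), and at E16.5 in arterial-like cells at 211 CPM (95% interval 154 to 282). At P0 DP-like cells stood at 121 CPM (95% interval 104 to 140.0), smooth muscle-like cells at 99.1 CPM (95% interval 78.9 to 123), arterial-like cells at 83.1 CPM (95% interval 47.5 to 135) and pericyte-like cells at 82.9 CPM (95% interval 59.97 to 112), all with overlap between neighbours. Jag2 was sparse, with 730 UMIs in all 3 libraries. Its top class was blood endothelial-like at E13.5 (8.73 CPM) and arterial-like at E16.5 (32.8 CPM, 15 cells) and P0 (31.2 CPM, 21 cells). Each of these overlapped the next class. Epithelial-like cells held 59.0% of its UMIs at E16.5 and 73.8% at P0, where they held 20.98% and 42.69% of all UMIs. Its level in basal-like cells, the dividing layer of the epidermis, was 19.1 CPM (95% interval 16.46 to 22.0) and 12.7 CPM (95% interval 9.70 to 16.2).

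Dll1, a ligand, had its highest level in the dermis of the hair follicle and a lower one in the basal epidermis. DC-like cells held 38.6% of its UMIs at E16.5 and DP-like cells 29.8% at P0, against 5.13% and 3.19% of all UMIs. Basal-like cells stood at 25.4 CPM (95% interval 22.4 to 28.8) and 24.7 CPM (95% interval 20.48 to 29.5). At P0 the 12 lymphatic-like cells came to 64.6 CPM (95% interval 36.1 to 106), which overlapped the DP-like interval. At E13.5 the level was 16.4 CPM (95% interval 12.6 to 21.1) in neuron-like and 14.9 CPM (95% interval 11.9 to 18.4) in muscle-like cells, with overlap.

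The target Hes1 was found in every class, and its top classes were epithelial or mural. At E13.5 it was highest in the epithelial-like cells that took no finer name, at 234 CPM (95% interval 211 to 257), followed by periderm-like cells at 184 CPM (95% interval 168 to 200.5). At E16.5 pericyte-like cells held 171 CPM (95% interval 139 to 207), smooth muscle-like cells 162 CPM (95% interval 136 to 191) and suprabasal-like cells 138 CPM (95% interval 116 to 162). At P0 the same 3 classes lay at 185, 183 and 187 CPM, and at both stages their intervals overlapped. Heyl was narrower. At E16.5 the order was pericyte-like cells at 216 CPM (95% interval 180.3 to 257), smooth muscle-like cells at 148 CPM (95% interval 124 to 176) and DC-like cells at 93.9 CPM (95% interval 83.8 to 105), with no overlap between neighbours. At P0 DP-like cells led at 148 CPM (95% interval 129.6 to 169), above pericyte-like cells at 94.4 CPM (95% interval 69.9 to 125).

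**Figure D1:**
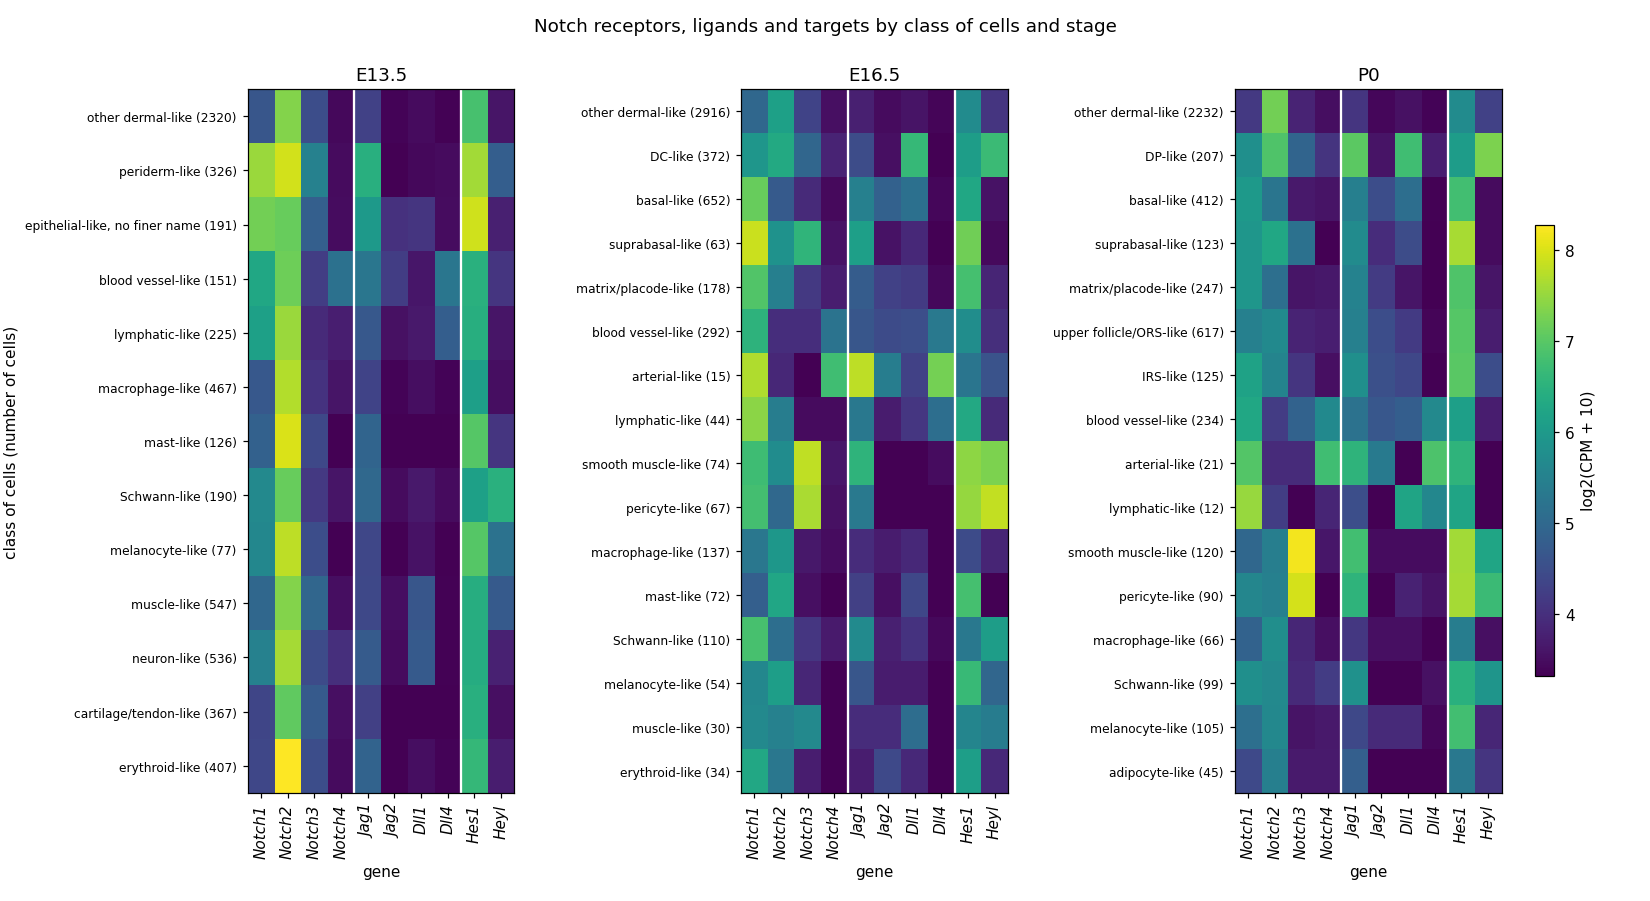
Level of each of the 10 genes (columns) in each named class (rows) of each stage (panels), as log2 of CPM plus 10 on a color scale, with the number of cells in brackets and white lines between receptors, ligands and targets. Notch3 is bright in the smooth muscle-like and pericyte-like rows, Notch4 and Dll4 in the blood endothelial-like and arterial-like rows, and Dll1 and Heyl in the DC-like and DP-like rows.

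The genes are spread over the genome. In GENCODE vM21 on GRCm38 (mm10), Notch1 lies at chr2:26457903-26516663 on the minus strand, Notch2 at chr3:98013527-98150361 (plus), Notch3 at chr17:32120820-32166852 (minus) and Notch4 at chr17:34564268-34588503 (plus). The ligands lie at chr2:137081456-137116644 (Jag1, minus), chr12:112907819-112929776 (Jag2, minus), chr17:15367354-15376872 (Dll1, minus) and chr2:119325784-119335962 (Dll4, plus). Hes1 is at chr16:30064384-30067796 and Heyl at chr4:123233556-123249875, both on the plus strand. All are protein-coding. Notch1, Notch2 and Jag2 overlap a microRNA or predicted gene on their own strand, and how UMIs from such an overlap were counted is not known here.

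The letters TGGGAA, the core that RBPJ binds, were looked for on both strands (TTCCCA on the other) in the 250 bases before each gene's start, from RefSeq on GRCm38.p6. Of the members, 8 had an entry, and 0 of these held the motif. They were the receptors and ligands, while the targets Hes1 and Heyl had no entry and were not searched. Of all 32817 entries, 21.6% held it and 2.77% held it at least 2 times. Of 27 genes of a wider list of 36 Notch pathway genes with an entry, 11 held it in at least 1 of their entries, a count by gene that is not to be set against the shares of entries. The Hes5 entry is shown because Hes5 had a large difference in both the DC-like and the DP-like cells, and it was chosen after its values were seen. It covers chr4:154960673-154960922 on the plus strand and holds 2 matches, in capitals, that begin 226 and 82 bases before the start.
Hes5 promoter: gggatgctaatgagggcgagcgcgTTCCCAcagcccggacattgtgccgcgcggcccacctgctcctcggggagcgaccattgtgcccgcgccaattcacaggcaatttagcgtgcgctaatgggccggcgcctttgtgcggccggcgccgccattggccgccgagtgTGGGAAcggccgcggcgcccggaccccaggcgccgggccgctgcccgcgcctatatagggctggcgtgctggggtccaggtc
A match describes letters only, and binding was not measured.

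In the DC-like cells of E16.5, 2 of 8 members tested were called higher than in other dermal-like cells and 0 lower, where 2.63% of 11982 genes were called higher and 3.01% lower. The ligand Dll1 stood at 90.3 CPM (95% interval 80.5 to 101) against 1.91 CPM (95% interval 1.47 to 2.44), a log2 difference of 3.08 (95% interval 2.91 to 3.23). The target Heyl differed by 2.62 (95% interval 2.46 to 2.78). Across the 11 other dermal-like clusters Dll1 ran from 0.732 to 5.55 CPM and Heyl from 0.732 to 28.9, so none reached the DC-like level. Notch1, at 50.9 against 21.5 CPM, fell just short of a call with a log2 difference of 0.95 (95% interval 0.75 to 1.15). For Jag1 the levels were 12.4 and 3.60 CPM, and a small other dermal-like cluster led by Mfap5, Ly6a and Pi16 reached 68.4 CPM.

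The wider list of 36 pathway genes held further targets with large differences in DC-like cells. Of 33 tested, 3 were higher and 1 lower. Hes5 stood at 105 against 1.19 CPM, with a log2 difference of 3.37 (95% interval 3.22 to 3.51). Hey1 differed by 1.78 and the sugar transferase Lfng by 1.53. The one gene called lower was Dlk1, a Notch-related protein that lacks the domain of activating ligands, at 981 against 2493 CPM. The median log2 difference was 0.67 over the 8 members, 0.18 over the wider list and 0.04 over all genes tested.

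In the DP-like cells of P0, 5 of 7 members tested were called higher than in other dermal-like cells and 0 lower, where 5.47% of 10367 genes were called higher and 3.03% lower. They were 2 receptors, 2 ligands and 1 target. Jag1 stood at 121 CPM (95% interval 104 to 140.0) against 6.95 CPM (95% interval 5.65 to 8.46), a log2 difference of 2.95 (95% interval 2.71 to 3.18). Dll1 stood at 98.8 CPM (95% interval 83.5 to 116) against 1.61 CPM (95% interval 1.02 to 2.42), a log2 difference of 3.23 (95% interval 2.99 to 3.45). The target Heyl, at 148 against 9.41 CPM, differed by 3.03 (95% interval 2.81 to 3.24). One other dermal-like cluster, of 231 cells led by Lrrc15, Sost and Tnmd, held 52.6 CPM of Heyl, the highest of the 7 other clusters.

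Notch1 and Notch3 were the receptors called higher in DP-like cells. Notch1 stood at 45.0 against 7.72 CPM, a log2 difference of 1.63 (95% interval 1.32 to 1.95). For Notch3 the levels were 20.2 and 4.003 CPM and the difference 1.11 (95% interval 0.73 to 1.48), a call that was kept under 5 of 11 alternatives, lost under 5 and turned under 1, with values down to -0.25. In the wider list 6 of 33 were higher and 0 lower. The targets among them were Hes5 at 93.4 against 0.983 CPM, Hey1 at 135 against 7.09 and Hey2 at 33.6 against 1.69. The other calls were Lfng, Mib1, a ligase that acts on ligands, and Dtx3. The median log2 difference was 1.63 over the 7 members and 0.16 over all genes tested.

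**Figure D2:**
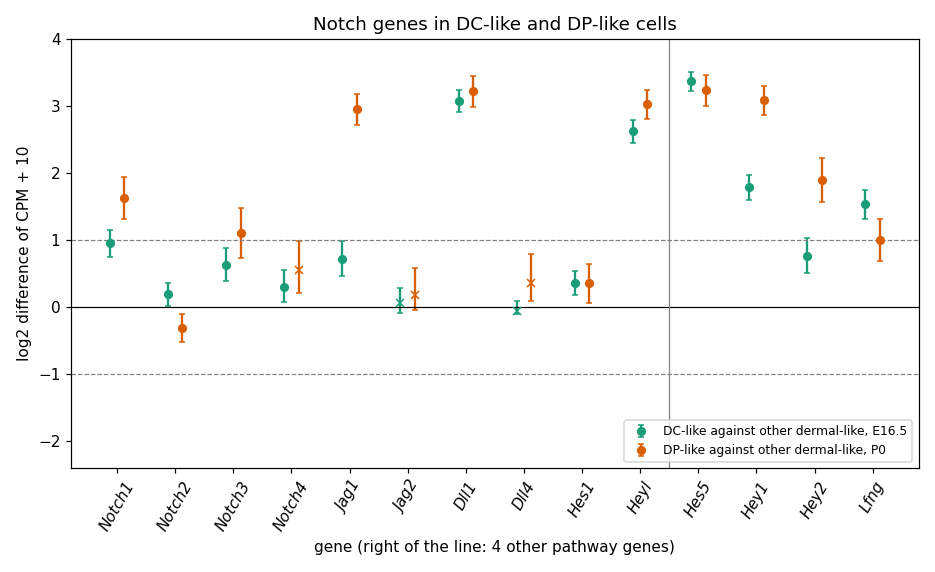
Log2 difference of CPM plus 10 between DC-like (E16.5) or DP-like (P0) cells and the remaining dermal-like cells of that library, for the 10 members and, right of the line, 4 other pathway genes, with 95% counting intervals, dashed lines at the call limits and crosses for genes with too few UMIs to be tested. Dll1, Heyl, Hes5 and Hey1 lie past the upper limit at both stages, and Jag1 only at P0, where its level was 121 CPM.

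Markers of other cells moved with these differences. The 10 epithelial markers summed to 558 CPM in DC-like and 368 in other dermal-like cells (1 called higher). At P0 they summed to 1530.0 and 490.4 (5 called higher). Their part in the result was not tested. Over all epithelial-like cells of E16.5, Dll1 stood at 20.4 and Heyl at 2.23 CPM, below DC-like cells, while Notch1 at 134 was above them. At P0 the epithelial-like level was 36.0 for Jag1, 11.9 for Dll1, 2.92 for Heyl and 5.68 for Notch3, below DP-like cells. For Notch1 it was 45.0 against 45.0 CPM in DP-like cells, and for Lfng 92.6 against 45.0. These calls also rest on naming whole clusters. When each cell was named by its own markers, DC-like cells shared only 34 cells with the clusters (9.14% of those and 6.88% of the cell-by-cell class) and DP-like cells 6 (2.9% and 1.33%). The members called were then 0 in each, and Heyl in DC-like cells stood at -0.07.

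After each cell was thinned to 3500 UMIs, Dll1 was found in 21.5% (95% interval 17.4% to 26.0%) of DC-like cells. In other dermal-like cells it was found in 0.480% (95% interval 0.263% to 0.804%) and in macrophage-like cells in 1.47% (95% interval 0.179% to 5.21%). Without thinning the DC-like share was 30.6%, and the median cell had 8517 UMIs in DC-like, 10640.5 in other dermal-like and 11818 in macrophage-like cells. At P0 the thinned shares in DP-like cells were 22.7% (95% interval 17.2% to 29.0%) for Dll1, 24.6% (95% interval 18.9% to 31.1%) for Jag1 and 33.8% (95% interval 27.4% to 40.7%) for Heyl. The corresponding shares in macrophage-like cells were 1.51% (95% interval 0.0384% to 8.15%), 1.51% (95% interval 0.0384% to 8.15%) and 0% (95% interval 0% to 5.44%). Unthinned, the DP-like shares were 38.6% for Dll1, 36.2% for Jag1 and 48.8% for Heyl, and the median cell had 6094 UMIs in DP-like and 8220.5 in macrophage-like cells.

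The DP-like cells came from 2 clusters that differed in Jag1. One of 43 cells, with Serpine2, Gdf10, Rspo1 and Corin among its leading genes, held 284 CPM (95% interval 235 to 340.5). The other of 164 cells, with Sox18 among its leading genes, held 59.3 CPM (95% interval 45.7 to 75.7). Bmp3 and Inhba were leading genes of both. Dll1 stood at 113 CPM (95% interval 82.4 to 150.1) and 93.6 CPM (95% interval 76.2 to 114), with overlapping intervals. Heyl went the other way from Jag1, with 97.9 CPM (95% interval 69.9 to 133) in the cluster with Serpine2 and 168 CPM (95% interval 144 to 194) in that with Sox18. Hes5 stood at 147 against 73.2 CPM and Hey2 at 80.8 against 15.8, both higher in the cluster with Serpine2. The clusters were made from the same cells, so these values are a description.

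Among single DC-like cells the targets Hes5 and Heyl, the one pair of targets examined, occurred together. Heyl was found in 30 of 44 cells (68.2%, 95% interval 52.4% to 81.4%) with a Hes5 UMI and in 54 of 328 cells (16.46%, 95% interval 12.6% to 20.9%) without one, all cells thinned to 3500 UMIs. In DP-like cells the corresponding values were 15 of 31 cells (48.4%, 95% interval 30.1% to 66.9%) and 55 of 176 cells (31.2%, 95% interval 24.5% to 38.7%), whose intervals overlapped. For the ligand Dll1 in DC-like cells, Notch1 was found in 24 of 80 cells (30.0%, 95% interval 20.3% to 41.3%) with and 41 of 292 cells (14.0%, 95% interval 10.3% to 18.6%) without a Dll1 UMI. Hey1 was found in 24 of 80 cells (30.0%) with and 42 of 292 cells (14.4%) without one, also with intervals apart. For Heyl and Hes5 the shares with and without a Dll1 UMI overlapped. In DP-like cells Jag1 and Dll1 did not go together or apart beyond counting error. Dll1 was there in 11 of 51 cells (21.6%, 95% interval 11.3% to 35.3%) with and 36 of 156 cells (23.1%, 95% interval 16.7% to 30.5%) without a Jag1 UMI. Cells of 1 library share their handling, so these shares describe the library.

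**Figure D3:**
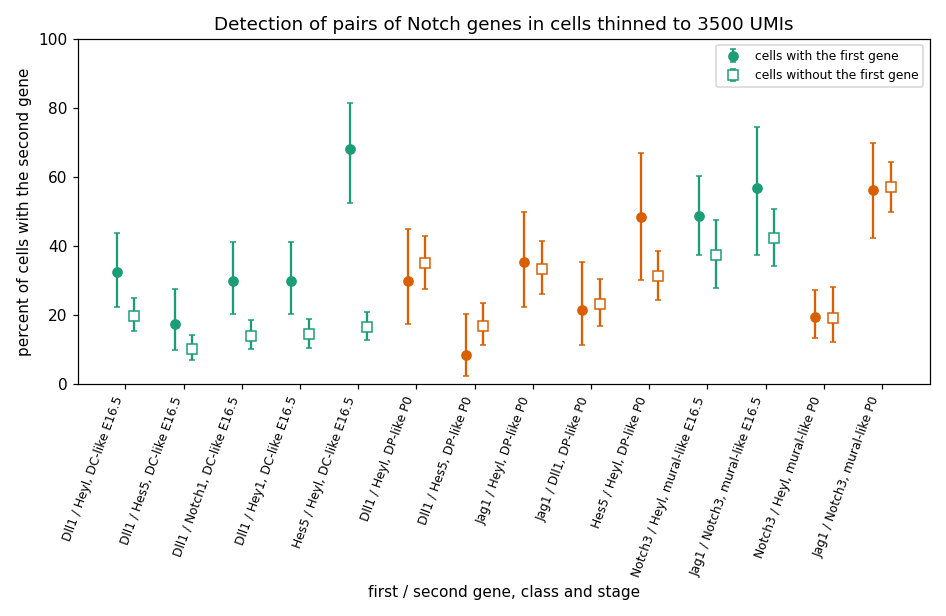
Percent of DC-like, DP-like and mural-like cells with a UMI of a second gene, among cells with (filled points) and without (open points) a UMI of a first gene, each cell thinned to 3500 UMIs, with exact 95% binomial intervals. In DC-like cells the Hes5 and Heyl pair is far apart, at 68.2% and 16.46%. The intervals of Dll1 with Notch1 and of Dll1 with Hey1 are also apart there, while those of the other pairs overlap.

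In the vessel lining, Notch4 and Dll4 were called higher in endothelial-like cells than in all other cells at each stage. At E13.5, 2 of 10 members were called higher and 0 lower, against 2.53% and 1.67% of all genes tested. At E16.5 the counts were 2 and 1, against 4.94% and 5.46%, and at P0 3 and 1, against 6.54% and 6.22%. Dll4 differed by 1.65 (95% interval 1.44 to 1.86) at E13.5, 2.04 (95% interval 1.89 to 2.19) at E16.5 and 2.37 (95% interval 2.17 to 2.57) at P0, from levels of 22.4, 32.9 and 44.1 CPM against at most 0.438 CPM in other cells. Notch4 differed by 1.01 (95% interval 0.78 to 1.24), 1.61 (95% interval 1.44 to 1.77) and 2.08 (95% interval 1.87 to 2.29). Its level was 26.2, 26.85 and 40.75 CPM in blood endothelial-like cells but 3.42, 1.02 and 4.30 CPM in lymphatic-like cells. The latter were 225 of 376 endothelial-like cells at E13.5, 44 of 351 at E16.5 and 12 of 267 at P0. The part of this make-up in the Notch4 differences was not tested. At E13.5 the Notch4 call was lost under 2 of 9 alternatives, when each cell was given equal weight (0.70) and with cell-by-cell naming. The median log2 difference was 0.05, 0.23 and 0.36 over the members and -0.09, -0.07 and -0.10 over all genes tested.

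Of the wider list, 1 of 36 genes was called higher in endothelial-like cells and 1 lower at E13.5, 3 and 3 of 35 at E16.5, and 3 and 3 of 34 at P0. Mfng, which adds sugars to the receptors, was called higher at each stage, with 69.5 against 5.38 CPM at E13.5, 129 against 2.23 at E16.5 and 152 against 1.36 at P0. The target Nrarp was called higher at E16.5 (2.31) and P0 (1.60). Dlk1 was called lower at each stage. Adam10, a protease that cuts Notch, was called higher at P0 with 91.6 against 33.7 CPM.

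Notch1 and Notch2 had opposite directions in the vessel lining. Notch1 was called higher at P0 only, with 77.5 against 28.9 CPM and a log2 difference of 1.17 (95% interval 0.999 to 1.34), and its values at E13.5 and E16.5 were 0.81 and 0.69. The P0 call was lost without cells under 2500 genes (0.76). Notch2 stood at 9.60 against 49.1 CPM at E16.5, a log2 difference of -1.59 (95% interval -1.77 to -1.40). At P0 it stood at 8.13 against 76.7, with -2.26 (95% interval -2.50 to -1.98). At E13.5, by contrast, the levels were 158 and 171 CPM and the difference -0.11 (95% interval -0.22 to 0.00). Of 7 blood endothelial-like sub-clusters at E13.5, 4 had at least 2 markers of another class among their leading genes, and this was so for 3 of 8 at E16.5 and 4 of 8 at P0.

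Within the blood vessel lining, arterial-like cells were few, 15 at E16.5 and 21 at P0, and carried 11 of 11 arterial markers. At E16.5, 4 of 7 members were called higher than in other blood endothelial-like cells and 0 lower, against 4.67% and 4.92% of genes tested. At P0 it was 3 of 7 and 0, against 2.72% and 3.59%. Jag1 stood at 211 CPM (95% interval 154 to 282) against 14.98 CPM (95% interval 11.9 to 18.6) at E16.5 and at 83.1 CPM (95% interval 47.5 to 135) against 26.7 CPM (95% interval 20.9 to 33.5) at P0. Its log2 differences were 3.15 (95% interval 2.67 to 3.59) and 1.34 (95% interval 0.61 to 2.03). Dll4 stood at 141 and 109 CPM in arterial-like cells, with differences of 1.91 and 1.25, and Notch4 at 98.4 and 98.7 CPM, with 1.56 and 1.10. Notch1 was called at E16.5 only, at 1.17, and once cells under 2500 genes were dropped this call (0.83) and those of Jag1 (0.79) and Dll4 (0.76) at P0 were lost. Hey1, a target that takes part in arterial fate, was the one gene of the wider list called higher at each stage, with 314 against 14.2 CPM and 119.5 against 13.3. With cell-by-cell naming, which kept 14 of the 15 and 18 of the 21 cells among 41 and 80, the members called were 1 and 0.

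**Figure D4:**
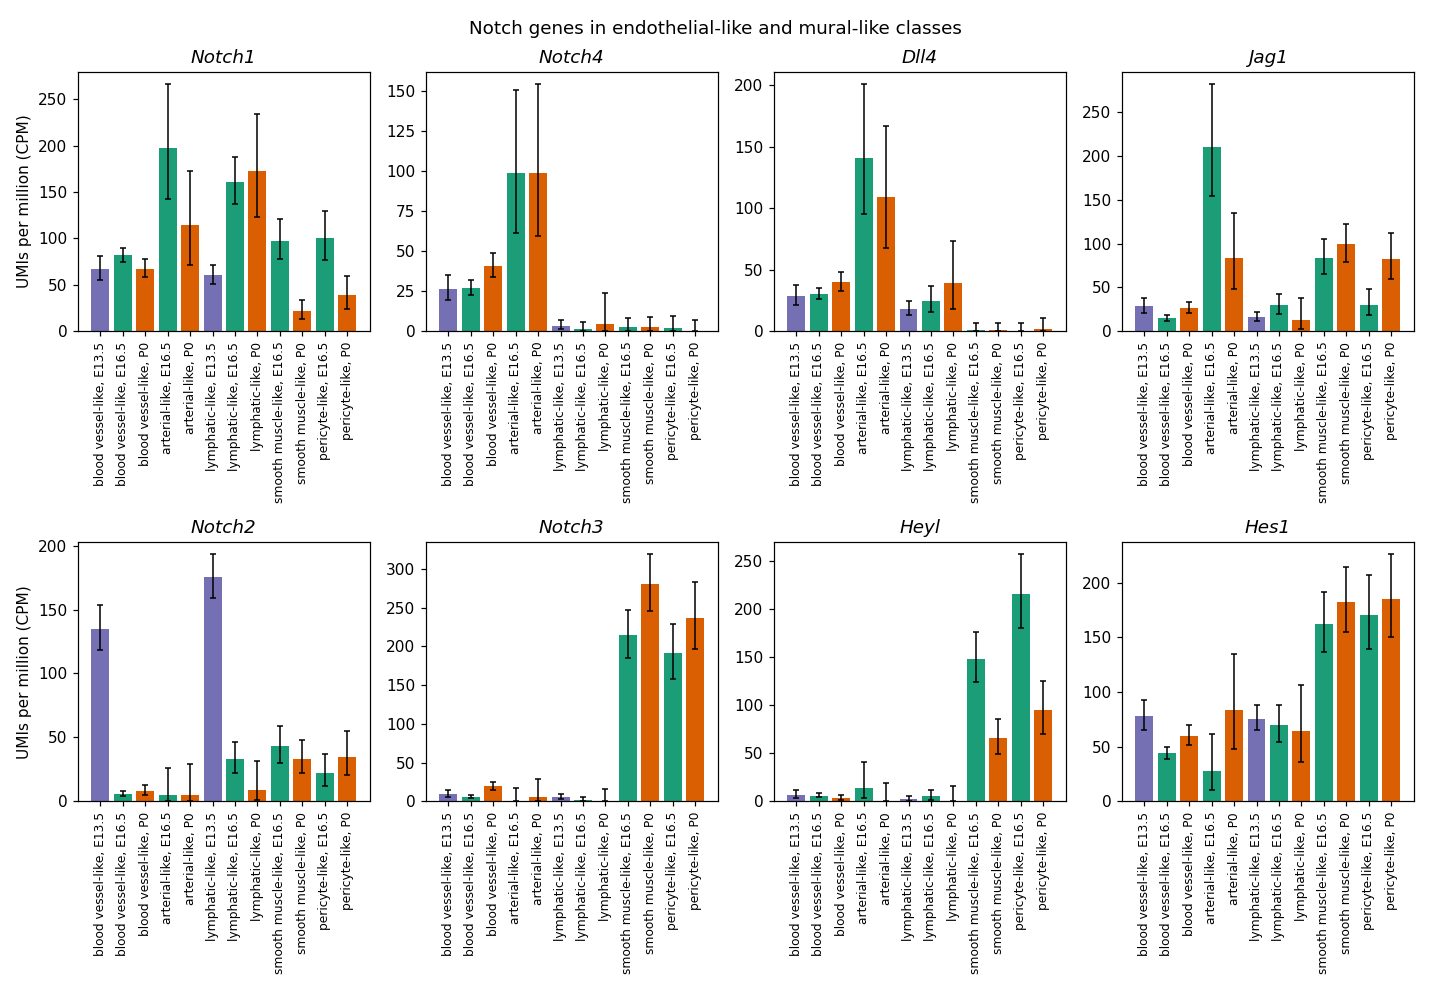
Levels of 8 genes in CPM (bars, from 0) in the endothelial-like and mural-like classes, colored by stage, with exact 95% Poisson intervals. Dll4 and Notch4 lie highest in arterial-like cells, Jag1 is high in arterial-like and mural-like cells, and Notch3 and Heyl lie highest in smooth muscle-like and pericyte-like cells.

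Notch3 in the vessel lining traced to small groups of cells. At E16.5, 23 of 31 Notch3 UMIs of blood endothelial-like cells lay in a sub-cluster of 24 cells. Its leading genes held the pericyte genes Cox4i2, Kcnj8 and Pdgfrb, but also the macrophage genes Pf4 and C1qa and the dermal gene Col3a1, so it was mixed. At P0, 50 of 54 lay in 17 cells led by Rgs5, Acta2 and Cox4i2. Leaving those out at P0 changed no call. In the same way, 17 of 50 Dll1 UMIs at P0 lay in 29 blood endothelial-like cells led by Lrg1 and Vwf, at 64.6 CPM (95% interval 37.6 to 104), and Dll1 itself was among their leading genes.

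In mural-like cells, the cells that wrap vessels, 4 of 10 members were called higher than in all other cells and 0 lower at both stages. The background was 2.75% higher and 3.3% lower at E16.5, and 4.63% and 4.62% at P0. Notch3 stood at 189 against 9.99 CPM at E16.5 and 246 against 6.42 at P0, with log2 differences of 3.32 (95% interval 3.17 to 3.46) and 3.96 (95% interval 3.81 to 4.11). Mural-like cells thus held 38.0% and 59.4% of its UMIs, against 3.13% and 3.68% of all UMIs. The target Heyl differed by 2.95 (95% interval 2.79 to 3.11) and 1.89 (95% interval 1.64 to 2.13). Jag1 differed by 1.501 and 1.28 and Hes1 by 1.40 and 1.04. At P0 the calls of Jag1 and Hes1 were lost without cells under 2500 genes, at 0.64 and 0.63. The median over the 10 members was 0.17 and -0.24, against -0.05 and -0.06 over all genes tested.

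A receptor, a ligand and both targets were thus called higher in the same class. Among single mural-like cells, Heyl was found in 39 of 80 cells (48.8%, 95% interval 37.4% to 60.2%) with a Notch3 UMI and 37 of 99 cells (37.4%, 95% interval 27.9% to 47.7%) without one at E16.5. At P0 it was found in 27 of 138 cells (19.6%, 95% interval 13.3% to 27.2%) and 20 of 104 cells (19.2%, 95% interval 12.2% to 28.1%). The intervals overlapped at both stages. Of the wider list 3 of 35 were called higher and 1 lower at E16.5, and 3 and 2 of 34 at P0. Nrarp was called higher at both stages, by 2.01 and 1.57, as was Dtx3. Hey2 was called higher at E16.5 (1.59) and Dlk1 at P0 (1.78). The sugar transferases were lower, Mfng at E16.5 (-1.09) and Lfng at P0 (-1.48), and Dlk2 was lower at P0.

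In the epithelium, Notch1 was called higher than in dermal-like cells at all 3 stages. Its levels were 162 against 15.1 CPM at E13.5, 134 against 24.2 at E16.5 and 45.0 against 11.2 at P0. The log2 differences were 2.77 (95% interval 2.63 to 2.91), 2.07 (95% interval 1.98 to 2.16) and 1.37 (95% interval 1.23 to 1.51). At E13.5, 2 of 6 members tested were called higher and 0 lower, against 4.06% and 3.39% of genes tested. At E16.5 the counts were 3 and 2 of 9, against 4.56% and 7.7%. At P0 they were 2 and 2 of 9, against 5.39% and 7.6%. The epithelial-like cells of E13.5 also held 249 CPM of 10 macrophage markers against 37.5 in dermal-like cells, with 6 called higher. Of 9 erythroid markers, 7 were called higher, with sums of 11770.0 and 3565 CPM, and the part of both lists in the result was not tested.

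Jag1 accompanied Notch1 in the epithelium before birth. It differed by 2.01 (95% interval 1.83 to 2.18) at E13.5 and 1.57 (95% interval 1.44 to 1.69) at E16.5. At P0 its difference of 0.73 (95% interval 0.59 to 0.87) was not called. Dermal-like cells include DC-like cells at E16.5 and DP-like cells at P0, and their part in the Jag1 differences was not tested. Jag2 was called at E16.5, with 15.8 against 1.05 CPM, and stood at a difference of 0.99 at P0. Hes1 was called higher at P0, with 117 against 43.8 CPM. Notch2 was the receptor called lower, at 22.2 against 61.3 CPM at E16.5 and 37.6 against 136 at P0. Heyl was called lower at both later stages, with differences of -1.02 and -1.33, calls that were each lost under 3 of 10 alternatives, with values as small as -0.043 and -0.15. Of the wider list 1 of 34 was called higher and 1 lower at E13.5, 4 and 4 of 34 at E16.5, and 4 and 4 of 33 at P0. The target Nrarp was called higher at each stage, by 4.56, 2.16 and 2.65. Lfng, Maml3, which helps RBPJ to turn on targets, and Dlk2 were called higher at both later stages, and Dlk1, Hey1, Numbl and Dtx4 lower. The median over the members was 0.89, 0.60 and 0.08 at E13.5, E16.5 and P0, against -0.03, -0.05 and 0.05 over all genes tested.

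Between epidermal layers, the receptors Notch2 and Notch3 were called higher and the ligands Dll1 and Jag2 lower above the basal layer at E16.5. Suprabasal-like cells, against basal-like cells, had 2 of 7 members called higher and 2 lower, against 6.05% and 2.21% of genes tested. Notch3 stood at 84.8 CPM (95% interval 68.1 to 104) against 4.99 CPM (95% interval 3.70 to 6.58), a log2 difference of 2.66 (95% interval 2.35 to 2.96). Notch2 stood at 47.6 against 16.3 CPM, and Notch1, at 225 against 130.1, differed by 0.74 (95% interval 0.55 to 0.94) and was not called. Dll1 stood at 4.76 against 25.4 CPM, a difference of -1.26 (95% interval -1.64 to -0.73), and Jag2 at 1.91 against 19.1, a difference of -1.29 (95% interval -1.55 to -0.77). The ligand Jag1 had the other direction, with 59.0 against 34.3 CPM and a difference of 0.64 (95% interval 0.30 to 0.97) that was not called. With cell-by-cell naming the calls of Notch2 (0.0077), Dll1 (-0.88) and Jag2 (-0.97) were lost, and those of Notch2 and Dll1 were each lost under 3 of 7 alternatives in all. The 63 suprabasal-like cells of E16.5 also carried 7 of 8 periderm markers beside 8 of 9 suprabasal ones, so the layers above the basal one cannot be told apart there.

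At P0 Notch2 and Notch3 were again called higher, and no ligand was called. Against basal-like cells, 123 suprabasal-like cells had 2 of 7 members called higher and 0 lower, against 3.29% and 4.49% of genes tested. Notch3 stood at 26.1 CPM (95% interval 19.2 to 34.7) against 2.65 CPM (95% interval 1.41 to 4.53) and Notch2 at 67.1 against 27.7 CPM, log2 differences of 1.51 and 1.03. With cell-by-cell naming the Notch2 call was lost (0.43). Notch3 stood there at 1.26 but had fewer than the 50 UMIs needed for a call, as it had without cells under 2500 genes. Dll1 and Jag2 differed by -0.64 (95% interval -1.02 to -0.24) and -0.54 (95% interval -0.91 to -0.11). Hes1 had values of 0.94 at E16.5 and 0.85 at P0, both short of a call. In the wider list 3 of 27 were called higher and 2 lower at E16.5, and 2 and 3 of 25 at P0. Nrarp was called higher at both stages, and Lfng and Dlk2 lower. Lfng differed by -1.87 and -1.92.

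Dll1 was lower where the follicle epithelium forms. In cells like the hair matrix or the placode it stood at 8.13 CPM (95% interval 5.16 to 12.2) at E16.5, against 25.4 CPM (95% interval 22.4 to 28.8) in basal-like cells, which at -0.97 (95% interval -1.26 to -0.65) was not called. At P0 it stood at 2.15 CPM (95% interval 0.790 to 4.69) against 24.7 CPM (95% interval 20.48 to 29.5), and the difference of -1.51 (95% interval -1.77 to -1.18) was called. Of 7 members tested at E16.5, 0 were called in either direction, against 2.13% and 0.548% of genes tested. At P0, 0 of 6 were higher and 1 lower, against 2.74% and 3.65%. Dlk2 was called lower at both stages, by -2.14 and -3.42. Within basal-like cells of E16.5, Notch1 was found in 20 of 67 cells (29.9%, 95% interval 19.3% to 42.3%) with a Dll1 UMI. Without one it was found in 190 of 585 cells (32.5%, 95% interval 28.7% to 36.4%). These intervals overlapped, and the first is too wide to show that the 2 genes are unrelated.

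**Figure D5:**
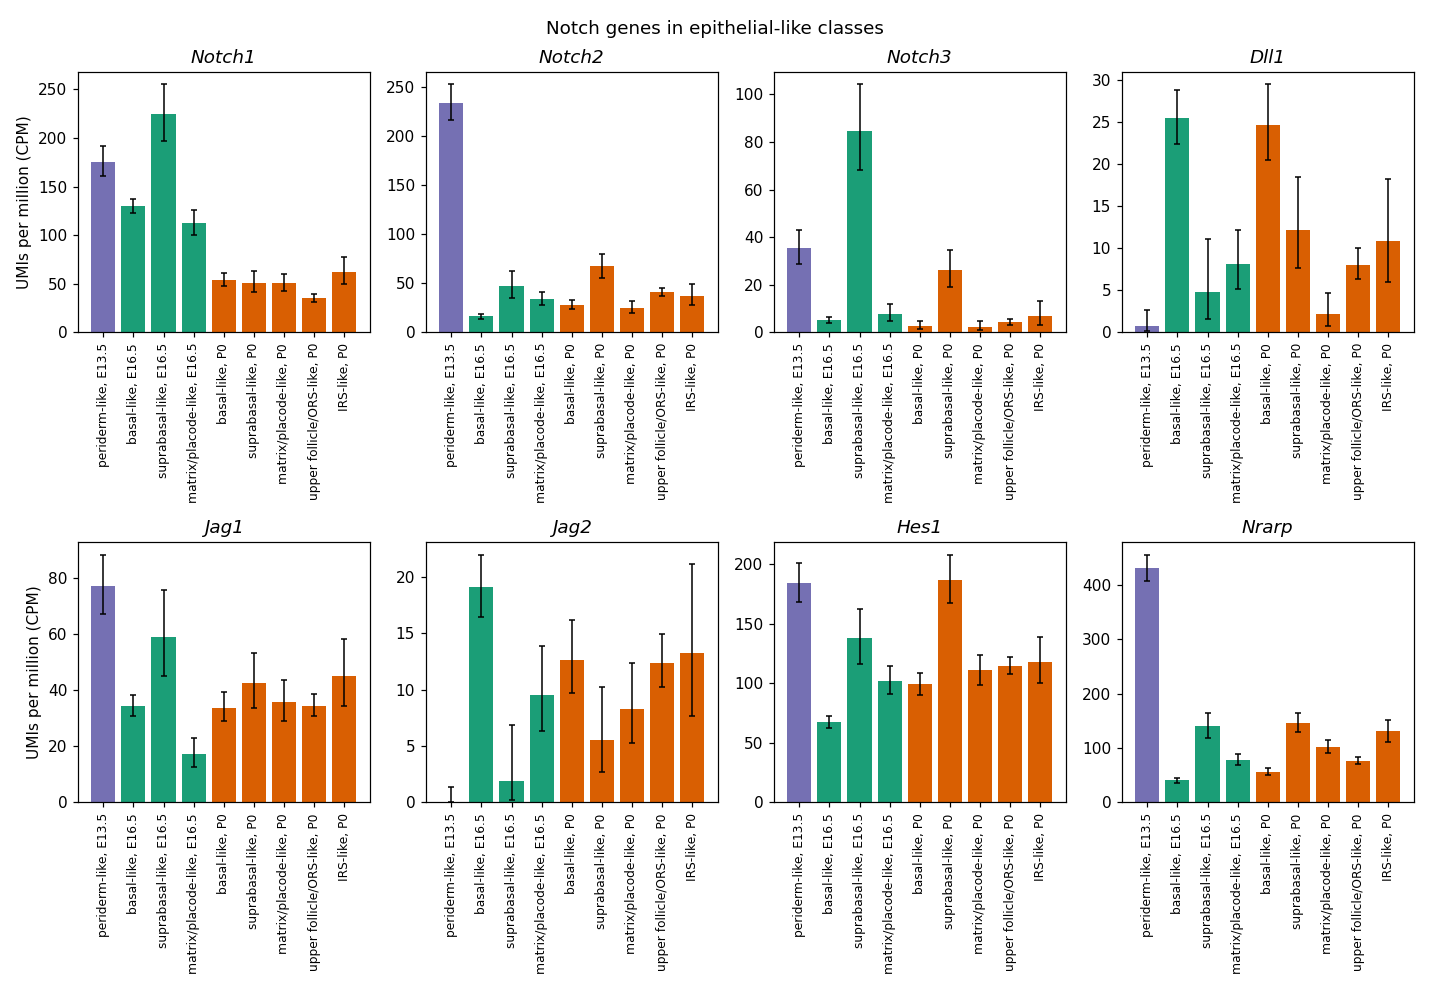
Levels of 7 members and the target Nrarp in CPM (bars, from 0) in the epithelial-like classes, colored by stage, with exact 95% Poisson intervals. Notch3 and Notch2 are higher in suprabasal-like than basal-like cells at E16.5 and P0, and Dll1 is highest in basal-like cells.

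Between E16.5 and P0 few members differed within a class, and stage cannot be told apart from library and digestion. In blood endothelial-like cells 0 of 9 members were called in either direction, against 2.78% of genes higher at P0 and 2.8% lower. In basal-like cells 0 of 7 were higher and 1 lower at P0, against 2.76% and 2.43%. That gene was Notch1, at 53.9 CPM (95% interval 47.5 to 60.8) at P0 against 130.1 CPM (95% interval 123 to 137) at E16.5, and its difference of -1.13 (95% interval -1.30 to -0.97) fell short of the limit without cells under 2500 genes (-0.87). In mural-like cells 0 of 6 were higher and 2 lower, against 4.03% and 3.81%. Notch1 stood there at 26.9 against 97.4 CPM, a difference of -1.54 (95% interval -1.91 to -1.18), and Heyl at 68.3 against 157, a difference of -1.09 (95% interval -1.37 to -0.82) that was not called with cell-by-cell naming (-0.94).

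Jag1 was called higher in the DP-like cells of P0 than in the DC-like cells of E16.5. It was the 1 of 7 members so called, and 0 were lower, against 4.22% and 3.81% of genes tested. Its level was 121 CPM (95% interval 104 to 140.0) against 12.4 CPM (95% interval 8.91 to 16.7), a log2 difference of 2.55 (95% interval 2.23 to 2.86). With cell-by-cell naming, which took mostly other cells, the Jag1 difference was 0.16 and was not called. Dll1 differed by 0.12 (95% interval -0.15 to 0.38) and Hes1 by -0.01 (95% interval -0.33 to 0.31). Of 29 genes of the wider list tested, the targets Hey1 and Hey2 were called higher, by 1.07 and 1.02, and Dtx4 lower. The epithelial markers differed as well, summing to 1530.0 against 558 CPM, and their part in the result was not tested.

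Single members had high levels in other cell types of the skin. Heyl stood at 78.7 CPM (95% interval 66.7 to 92.2), 57.6 CPM (95% interval 45.6 to 71.7) and 50.3 CPM (95% interval 34.0 to 71.8) in Schwann-like cells, the glia of skin nerves, at E13.5, E16.5 and P0, and at E13.5 this was its highest class. Among the neuron-like cells of E13.5, a cluster of 84 cells led by Fabp7, Sox2 and Hes5, genes of neural progenitors, held Dll1 at 78.7 CPM (95% interval 56.5 to 107) and Notch1 at 142 CPM (95% interval 112 to 178). Hes5 stood there at 426 and Nrarp at 234 CPM, while Heyl was at 0 UMIs. Its 10 leading genes held 0 neuron markers and 1 Schwann marker (Fabp7), so its name is uncertain.

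The muscle-like cells of E13.5 fell into 2 clusters. One of 384 cells was led by Pax7 and Myf5, genes of muscle progenitors, and one of 163 by Myog and Tnnt2, genes of differentiating muscle. Dll1 stood at 24.5 CPM (95% interval 17.9 to 32.6) in the Myog-led and 10.3 CPM (95% interval 7.43 to 14.1) in the Pax7-led cluster. The receptor and the targets had the other order. Notch3 stood at 6.39 CPM (95% interval 3.30 to 11.2) and 27.8 CPM (95% interval 22.8 to 33.5), Heyl at 5.85 and 21.7 CPM and Hes1 at 32.5 and 94.4. For Dll1 and for Notch3 the intervals did not overlap.

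The genes most like each member were found by Pearson's r of log2 CPM plus 10 over 38 classes of at least 50 cells, among 13139 genes. Classes of 1 library share their handling and depth, so r is a description. The closest pattern was that of Dll4, with Ccm2l (0.978), Exoc3l (0.974) and Arhgef15 (0.972). Notch4 was nearest to Tmem88 (0.928), and the r of Dll4 with Notch4 was 0.890. Heyl was nearest to Spon1 (0.924) and Ncald (0.914), and Notch3 to Lurap1 (0.894) and Rasl12 (0.877). For the widely found genes the nearest patterns were looser, with Baz2a for Notch1 (0.770) and Tmem11 for Hes1 (0.735), and for Dll1 the nearest was Adamts18 (0.793). Notch2 was nearest to Meis1 (0.849), Jag1 to Ndrg2 (0.831) and Jag2 to Itga3 (0.829). Among the members, Notch3 had an r of 0.603 with Heyl, 0.590 with Jag1 and 0.557 with Hes1, and Notch2 one of -0.601 with Jag2.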

How the data were processed

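Per the labels and the study's methods, reads were processed with Cell Ranger 2.2.0 on mm10, and cells were kept from 1750 genes. The values the authors deposited are the natural log of 1 plus UMIs per 10000 of a cell. Whole UMIs were recovered from them (48197283 of 48197283 values within 0.001). Counts were summed per class, with exact Poisson intervals for levels and exact binomial ones for shares. Differences were called as the report states, for genes with at least 50 UMIs in both groups together. With 1 library per stage no test was run.

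Cells were clustered per library in scanpy 1.11.5 (2000 variable genes without the Notch genes, 30 components, 15 neighbours, Leiden resolution 1 with leidenalg 0.10.2). A cluster took the class with the highest mean marker difference, with at least 3 markers high. Rules against mixed clusters, and a score of 2 for DC-like, DP-like and arterial-like, were chosen after the clusters were seen. Members, lists and comparisons were chosen with earlier results of these data known. All members are named, as is any called gene of the wider list. Doublets called by Scrublet were kept. On data simulated with counting error only, 66.5% of 200 genes changed 4-fold were called in the DC-like comparison (12001 genes). In the DP-like one (10361) 72% were called, and 0 went in the wrong direction in either. The simulation held no error from naming clusters or between cells, so it does not speak to these.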

Additional observations from a re-analysis of the deposited data

How the results depend on the processing

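Of 53 called values, 26 kept their direction and their call under every alternative run. Over 489 alternative values, 442 were kept, 43 were no longer called and 4 turned direction. A value could lose its call by its size or by too few UMIs. The 4 came from naming each cell by its own markers: Heyl in DC-like cells (-0.066), and Notch1 (-0.18), Notch3 (-0.25) and Jag1 (-0.45) in DP-like cells. That naming lost 21 further calls, and its DC-like and DP-like cells were mostly other cells. It gave 1 member called in endothelial-like cells at E13.5, 1 in arterial-like cells at E16.5 and 0 at P0, 0 in suprabasal-like cells at P0, 1 and 2 in cells like matrix or placode at E16.5 and P0, 0 in DC-like and 0 in DP-like cells, 0 between stages in basal-like and 1 in mural-like cells, and 2 between DP-like and DC-like cells, neither of them Jag1. A prior of 1 CPM in place of 10 lost no call and gave 4 members called in endothelial-like and 4 in epithelial-like cells at E13.5, 6 in endothelial-like, 7 in mural-like, 2 in matrix-like or placode-like and 6 in DC-like cells at E16.5, 7 in mural-like cells at P0 and 1 between stages in blood endothelial-like cells. A minimum of 2500 genes per cell lost 9 calls and gave 4 in epithelial-like cells at E13.5, 2 in mural-like and 1 in arterial-like cells at P0, and 1 and 0 between stages in blood endothelial-like and basal-like cells. In matrix-like or placode-like cells at E16.5, resolution 2, leaving out doublets, the median reference and equal weight each gave 1, equal weight gave 1 in endothelial-like cells at E13.5, and resolution 2 gave 2 between DP-like and DC-like cells. The cause of these changes was not tested. Leaving out dermal-like clusters led by markers of another class lost no call. Of the blood endothelial-like sub-clusters, only the 17 cells of P0 led by Rgs5, Acta2 and Cox4i2 were left out, again with no call lost. The remaining sub-clusters with leading genes of another class stayed in, and their part in the calls was not tested. Of the alternatives, 9 could not be run because a class was not named: resolution 0.5 for both arterial-like comparisons and for both with DP-like cells, at E16.5 the median reference for arterial-like and suprabasal-like cells and for both comparisons with DC-like cells, and 2500 genes for suprabasal-like cells at E16.5. No paired analysis was possible because each stage was 1 library. Counts of 0 in small classes allow levels of up to 15.6 CPM at a limit of 3 counts. Leaving out a replicate could not be done.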
